A study of Mus musculus with 12 samples.

Results

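Fibroblasts that carry the surface protein NCAM were compared with those that lack it in spontaneous mammary tumours of 3 untreated mice aged 10 weeks. The mice were of the FVB MMTV-PyMT strain, whose mammary epithelium expresses the polyoma middle T oncogene from the promoter of a mammary tumour virus, and every group of the series carries that transgene. The NCAM-positive population is called m2cafpos and the NCAM-negative population m2cafneg, as in the labels. Both were sorted from each tumour as live cells without CD45, CD31, EPCAM, Ly6C or CD146 and with PDGFRb and PDGFRa, so that the gates differ only in NCAM. The comparison uses 6 of the 12 libraries of the series, 3 of m2cafpos and 3 of m2cafneg, paired within mice 27, 30 and 31. The other 6 libraries are from the same tumours, 3 of Ly6C-positive cells (icaf) and 3 of CD146-positive, PDGFRa-negative cells (vcaf). They serve below to tell genes of fibroblasts from genes of other cells and as levels for comparison. They also enter the alternative fits that use all 12 libraries.

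NCAM, the product of Ncam1, is an adhesion molecule of the immunoglobulin family that is best known from neurons and is also made by other cells, among them some natural killer cells and mesenchymal progenitors. Cancer-associated fibroblasts make collagen and other matrix, and those under the influence of TGF-beta turn on alpha smooth muscle actin and contractile proteins and are called myofibroblasts. Other fibroblasts of a tumour make chemokines, complement and growth factor antagonists instead.

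The 6 libraries held 43898839 to 55363203 reads assigned to genes, and 13413 to 14566 genes had at least 1 CPM (reads per 1000000 assigned reads). A read stood for 0.0181 to 0.0228 CPM. Values below are CPM divided by a factor per library from the median of ratios (0.910 to 0.918 in m2cafpos and 1.06 to 1.16 in m2cafneg), called scaled CPM, and triplets of values are in the order of mice 27, 30 and 31. Fold changes are on the log2(scaled CPM + 1) scale, m2cafpos over m2cafneg, from a limma fit with the mouse as a block, and adjusted p-values are over the 14175 genes that reached 1 CPM in 3 or more of these libraries. A gene past the test has an adjusted p under 0.05.

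The gene behind the sort separated the gates. Ncam1 (chr9:49502136-49798925, minus strand, GRCm38) had 644, 619 and 657 scaled CPM in m2cafpos, against 28.1, 24.6 and 32.2 scaled CPM in m2cafneg. This checks the labels and is no finding, since the cells were sorted on its product. Pdgfra, the receptor that both gates were sorted on, had 544, 554 and 544 scaled CPM in m2cafpos, against 520, 553 and 405 in m2cafneg, and did not pass the test (log2 fold change 0.16, SE 0.12, adjusted p = 0.344). Pdgfrb, the other receptor of the sort, had 983, 784 and 984 scaled CPM in m2cafpos, against 850, 463 and 583 in m2cafneg (log2 fold change 0.57, adjusted p = 0.0198). That call was lost without mouse 30 (adjusted p = 0.0576) or mouse 31 (adjusted p = 0.0769). The fibroblast markers Col1a1, Col1a2, Dcn and Lum were abundant in all 6 libraries, so the label of fibroblasts fits their own genes in both gates.

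RNA of cells that the sort should have removed was present in both gates and was more abundant in m2cafneg. Epcam, the epithelial surface protein used for exclusion, had 83.8, 26.9 and 131 scaled CPM in m2cafpos, against 318, 265 and 449 in m2cafneg. Lalba, which encodes a milk protein of the lactating epithelium, had 76.6, 65.7 and 132 scaled CPM in m2cafpos, against 331, 462 and 554 in m2cafneg. The macrophage genes Cd14, a receptor for bacterial lipopolysaccharide, and C1qc, a chain of complement C1q, averaged 116 ± 73.8 and 5.49 ± 0.854 scaled CPM in m2cafpos, and 457 ± 125 and 28.3 ± 6.67 in m2cafneg (SD, n = 3 each). For each of these genes every m2cafneg library lay above every m2cafpos library, which for Lalba was a condition of its choice. In bulk libraries fewer cells of a type and less RNA per cell cannot be told apart, and neither can whole carried-over cells and free RNA.

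To put a number on this RNA, an index per library was taken as the median, over the markers of a cell type, of CPM divided by the marker's mean over the 12 libraries. The epithelial index (36 markers of luminal epithelium and milk) was 0.312 ± 0.191 in m2cafpos and 1.37 ± 0.509 in m2cafneg (SD, n = 3 each). Within mice, m2cafpos had 0.258, 0.127 and 0.260 of the m2cafneg index. The macrophage index (13 markers) was 0.353 ± 0.0614 in m2cafpos and 1.56 ± 0.283 in m2cafneg, with ratios of 0.274, 0.263 and 0.163. Endothelial markers followed the same order, at 0.261 ± 0.134 in m2cafpos and 1.08 ± 0.838 in m2cafneg, while pericyte markers were low in both gates (0.0317 ± 0.00475 and 0.0705 ± 0.0325). Each of the 4 indices was lower in m2cafpos in all 3 pairs, which gives an exact paired permutation p of 0.25 (two-sided), the smallest that 3 pairs allow. For comparison, the epithelial index averaged 0.280 in icaf and 1.90 in vcaf, so m2cafpos stood near the lowest gate and m2cafneg nearer to the highest. The sums of the whole luminal and macrophage marker lists showed the same order. The sum of the pericyte list did not in mouse 30, with 607 scaled CPM in m2cafpos against 465 in m2cafneg. The 24 luminal markers summed to 509 to 2337 scaled CPM in m2cafpos and to 3791 to 7281 in m2cafneg. The 20 macrophage markers, of which 19 were tested, summed to 189 to 277 in m2cafpos and to 647 to 942 in m2cafneg. None of these markers was at 0 in all 6 libraries.

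**Figure D1:**
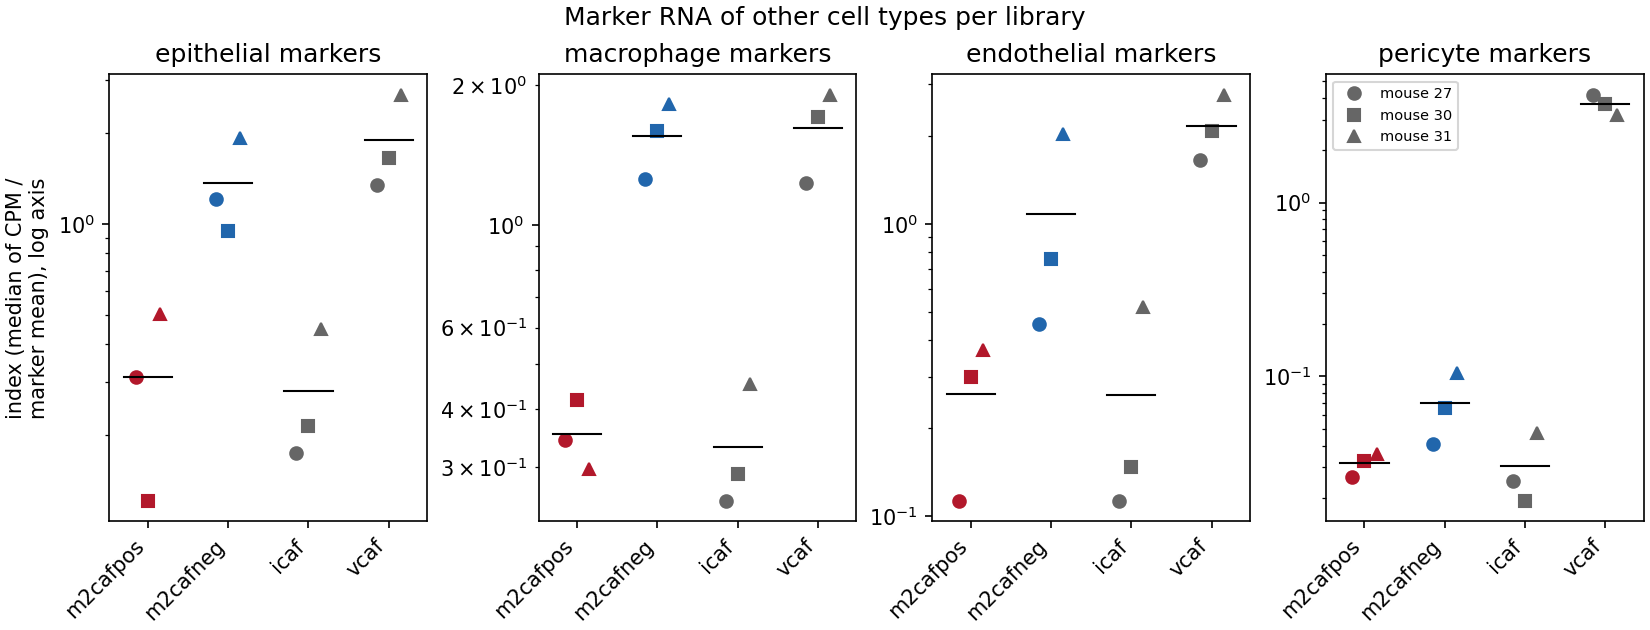
Index of marker RNA per library (median over markers of CPM divided by the marker's mean over 12 libraries, log axis) for epithelial, macrophage, endothelial and pericyte markers in m2cafpos, m2cafneg, icaf and vcaf. Points are libraries, their shape gives the mouse and the line is the mean of 3; every m2cafpos point lies below the m2cafneg point of its mouse in all 4 panels.

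Across genes, 1713 of 14175 (12.1%) were higher in m2cafpos and 2014 (14.2%) were lower. The median log2 fold change over all genes tested was 0.0037. Among the higher genes 349 differed by more than 1 on the log2 scale, and among the lower genes 940 did. The 3 libraries of each gate did not overlap for 5292 genes (37.3%). On CPM as deposited, without the factors, the median gene moved by -0.23 and the split was 842 higher and 4414 lower. Without the mouse as a block, 941 genes were higher and 1084 lower. The count of higher genes was 1056 without mouse 27 and 1076 without mouse 31.

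A ceiling was then computed for each gene, namely the largest share of its m2cafneg CPM that epithelial or macrophage RNA could have supplied, had that RNA the same make-up in every library. The ceiling takes the library in which the gene is lowest for its marker index as the most that the carried-over RNA can bring. It is an upper limit under that assumption and not an estimate, and it is high for any gene that every cell makes. The larger of the epithelial and macrophage ceilings counts, not their sum, and endothelial and pericyte RNA are left out. Noise in the lowest library or an uneven make-up can place it below the true share. Genes with a ceiling of at most 25% form what is called the stromal class here (1245 genes), and genes above 50% the carry-over class (11554 genes). A gene of the carry-over class can still be made by the fibroblasts. Of the genes lower in m2cafpos, 233 were stromal, 284 lay between 25% and 50%, and 1497 were in the carry-over class. The ceiling is taken over all 12 libraries, those of m2cafpos included. A gene that falls in m2cafpos by more than the index does gets a low ceiling through that fall. A gene that is low in vcaf, the gate with the highest epithelial index (1.90), can get a low ceiling too. The vcaf mean was at least that of m2cafneg for 119 of the 1245 stromal genes, against 7204 of all 14175 genes tested. It was so for 12 of the 404 stromal genes that were higher. The shares by class are therefore a description only. Put against their class, 18.7% of stromal genes were lower and 32.4% were higher, while 13.0% of the carry-over class was lower and 8.76% was higher. The indices are built from the luminal, milk and macrophage markers, so the class of these markers is no check of the split. The carry-over class held 20 of 24 luminal, 14 of 14 milk, 12 of 19 macrophage and 3 of 8 basal markers. It also held 11554 of all 14175 genes tested, so these counts do not show that the class picks out markers. Of the luminal, milk and macrophage markers tested, the luminal transcription factor gene Ovol1 and the macrophage genes Lyz1 and Ccr2 fell into the stromal class, as did the basal keratin gene Krt5. These 4 had means of 6.88, 4.34, 1.92 and 18.2 scaled CPM in m2cafneg.

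**Figure D2:**
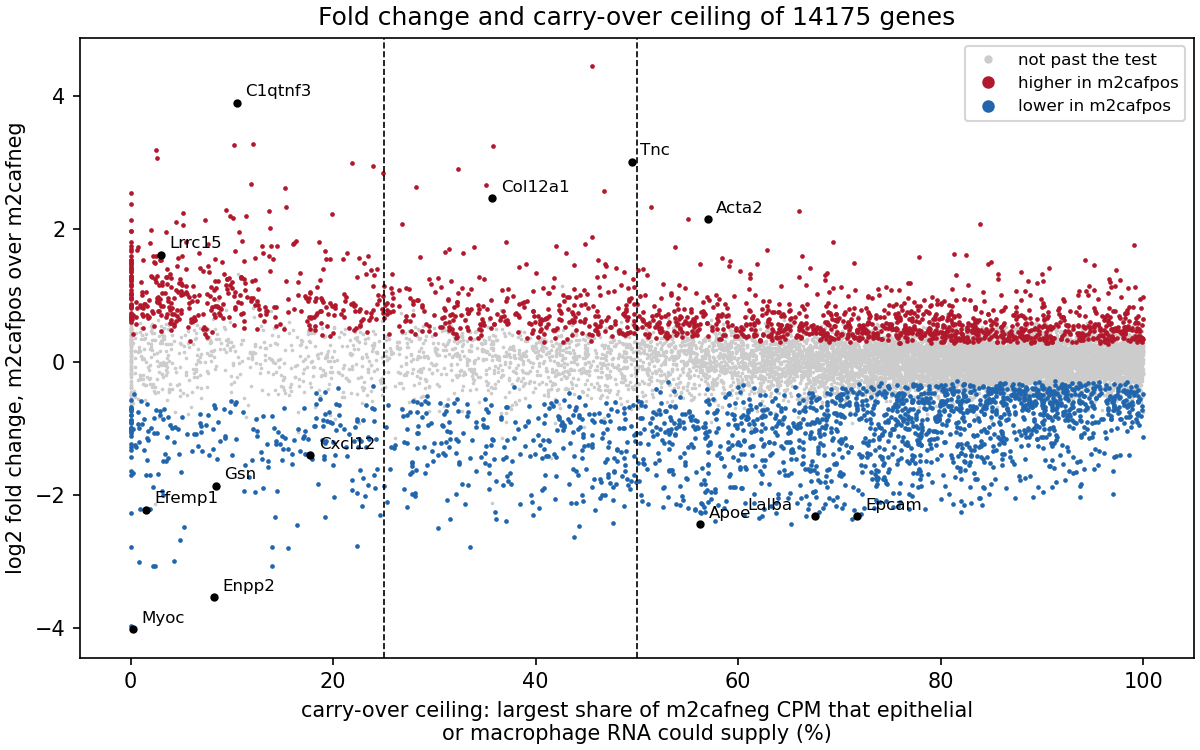
Log2 fold change of m2cafpos over m2cafneg (y axis) against the carry-over ceiling in percent (x axis) for the 14175 genes tested, with genes past the test coloured by direction and broken lines at 25% and 50%. Ncam1, the gene of the sort, has the largest rise (4.46) and a ceiling of 45.6%; C1qtnf3 with 3.91 and Myoc with -4.02 have ceilings of 10.5% and 0.257%, whereas Epcam, Lalba and Apoe lie beyond 50%.

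C1qtnf3, which encodes the secreted C1q/TNF-related protein CTRP3 (chr15:10952332-10980150, plus strand), had 1333, 2008 and 1683 scaled CPM in m2cafpos, against 106, 106 and 116 in m2cafneg (log2 fold change 3.91, SE 0.13, adjusted p = 1.7e-05). In icaf it averaged 151 ± 18.5 (SD, n = 3). Values of icaf and vcaf here and below use factors set over all 12 libraries and were not tested. Tnc, the gene of the matrix glycoprotein tenascin C (chr4:63959785-64047015), had 2198, 1135 and 2218 scaled CPM in m2cafpos, against 317, 134 and 241 in m2cafneg. Nrg1, which encodes neuregulin 1, a ligand of ERBB receptors (chr8:31814551-32884029), had 28.1, 41.3 and 25.8 scaled CPM in m2cafpos, against 2.57, 2.25 and 2.76 in m2cafneg (log2 fold change 3.19, SE 0.19, adjusted p = 0.000172). For both genes the gates did not overlap in any library, which was a condition of their choice.

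Ecrg4, which encodes a secreted peptide precursor (chr1:43730602-43742578), had 185, 105 and 116 scaled CPM in m2cafpos, against 22, 6.87 and 13.1 in m2cafneg. Mmp9, the gene of gelatinase B (chr2:164940780-164955850), had 18.0, 16.1 and 13.1 scaled CPM in m2cafpos, against 0.755, 0.255 and 1.36 in m2cafneg. Prokr2, a receptor for prokineticins, had 72.4, 60.3 and 70.1 scaled CPM in m2cafpos, against 11, 1.91 and 14.2 in m2cafneg. In mouse 30 the m2cafneg value of Prokr2 was the lowest, and the same held for Ecrg4 and Mmp9. The collagen VIII chain gene Col8a2 rose by 3.00, the metalloprotease gene Adamts16 by 2.95, the imprinted noncoding RNA H19 by 2.85, and Ddah1, which encodes an enzyme that breaks down asymmetric dimethylarginine, by 2.66, all on the log2 scale. The thromboxane receptor gene Tbxa2r, the kelch family gene Klhl30 and Prss35, a serine protease family gene, completed the list with 2.63, 2.68 and 3.27. Moxd1, a gene of the monooxygenase family, varied most between mice, with 64.7, 10.7 and 42.5 scaled CPM in m2cafpos, against 1.02, 5.87 and 4.63 in m2cafneg, and its fold change was 2.91 with an SE of 0.64. Among these 15 genes, Ncam1 included, 14 had a mean in icaf that was 0.0232 to 0.23 of the mean in m2cafpos, and the exception was Adamts16, with 15.9 ± 9.41 in icaf.

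**Figure D3:**
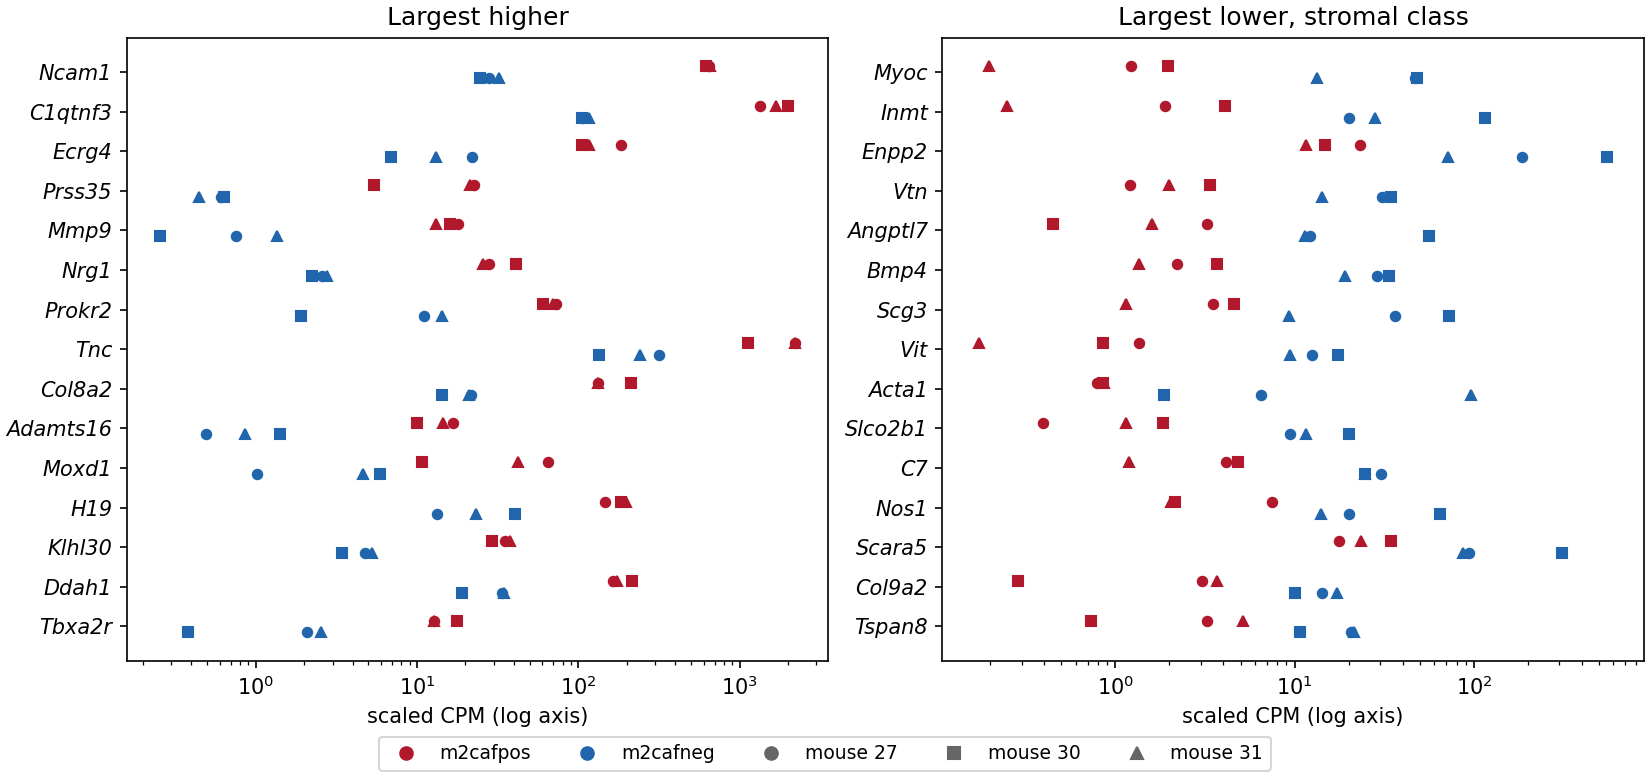
Scaled CPM per library (log axis) of the 15 genes with the largest rise in m2cafpos (left) and the 15 stromal-class genes with the largest fall (right). Red points are m2cafpos, blue points m2cafneg, and the shape gives the mouse. The gates do not overlap for any gene shown, which was a condition of the choice. Acta1 has a single m2cafneg library, that of mouse 31, far above those of the other mice.

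Promoter sequences of the gene with the largest rise besides Ncam1 and of the gene with the largest fall in the stromal class are shown because they are the ends of the comparison, and both windows hold a TATA box sequence. They are RefSeq windows of 300 bases on GRCm38.p6, 250 before and 50 after the start, plus strand of the gene, with TATAAA in capitals. C1qtnf3 is at chr15:10952082-10952381 and Myoc at chr1:162638900-162639199.
C1qtnf3: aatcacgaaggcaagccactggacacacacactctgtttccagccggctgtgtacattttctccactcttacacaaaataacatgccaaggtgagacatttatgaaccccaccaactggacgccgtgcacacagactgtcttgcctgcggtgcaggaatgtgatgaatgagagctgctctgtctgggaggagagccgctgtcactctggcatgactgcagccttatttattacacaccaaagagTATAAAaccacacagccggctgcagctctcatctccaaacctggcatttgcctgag
Myoc: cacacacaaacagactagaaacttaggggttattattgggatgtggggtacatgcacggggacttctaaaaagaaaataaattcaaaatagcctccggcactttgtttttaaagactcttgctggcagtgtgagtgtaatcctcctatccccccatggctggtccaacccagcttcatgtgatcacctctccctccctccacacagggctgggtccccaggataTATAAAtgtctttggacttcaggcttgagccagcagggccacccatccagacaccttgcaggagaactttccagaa
On both strands, TATAAA was found in 3 of 11 windows of the 15 largest higher genes (27.3%, windows for 9 genes) and in 5 of 14 windows of the 15 largest lower stromal genes (35.7%, windows for 12 genes), against 13.6% of all 32851 windows. GGGCGG, the GC box, was found in 7 of 11 windows of the higher genes (63.6%) and in 3 of 14 of the lower genes (21.4%), against 35.7% of all windows. The other 4 motifs searched were the SMAD box CAGAC (7 of 11 windows of the higher genes, 10 of 14 of the lower genes and 49.6% of all windows), MCAT as CATTCC (2 of 11, 4 of 14 and 14.7%), the Runx site TGTGGT (1 of 11, 1 of 14 and 16.8%) and the CArG box (0 of 11, 1 of 14 and 1.63%). A match describes the letters and is no site.

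Lists of matrix genes mostly had more members higher than lower, and the counts below can be read against the 12.1% of all genes that were higher and the 14.2% that were lower. Of 11 fibrillar collagen genes tested, 5 rose and 1 fell (median log2 fold change 0.68). Col5a1 and Col5a2, whose chains start collagen fibrils, rose by 0.92 and 1.01, and Col11a1 rose by 1.59 with 133, 175 and 135 scaled CPM in m2cafpos, against 59.0, 27.1 and 68.9 in m2cafneg. Col1a1, the main chain of collagen I, took 10.6%, 9.26% and 10.6% of all reads in m2cafpos, against 5.85%, 4.47% and 4.25% in m2cafneg. Its scaled CPM was higher in m2cafpos in all 3 pairs (log2 differences of 1.08, 1.27 and 1.64), yet it did not pass the test in this fit (log2 fold change 1.33, SE 0.71, adjusted p = 0.212). That SE is moderated towards a trend over genes of like abundance and does not measure the spread of the 3 pairs alone. Col1a1 passed with edgeR on the recovered reads (adjusted p = 0.00789), with DESeq2 (6.79e-20) and in the fit of all 12 libraries (0.00705). Col1a2, chosen after its values were seen, rose by 1.27 (adjusted p = 0.0267), which was lost without any of the 3 mice (0.0570 to 0.122). The cartilage collagen gene Col2a1 fell to 0.0198, 0.163 and 0.248 scaled CPM in m2cafpos, against 2.16, 2.12 and 2.04 in m2cafneg.

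The other collagens split, with 11 of 24 higher and 10 lower. Col12a1 and Col14a1, which coat collagen fibrils, had means of 962 ± 197 and 719 ± 91.4 scaled CPM in m2cafpos, and of 177 ± 55.1 and 267 ± 62.2 in m2cafneg (SD, n = 3 each). Among those that fell, Col9a1 and Col9a2, chains of collagen IX, had means of 26.3 ± 17.2 and 2.35 ± 1.81 scaled CPM in m2cafpos, and of 124 ± 64.9 and 13.9 ± 3.64 in m2cafneg. In vcaf the means were 131 for Col9a1 and 22.2 for Col9a2, and in icaf 33 and 2.54. Their ceilings were 56.2% and 19.2%, and the part of carried-over RNA in their fall was not tested.

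Of 24 genes that fold, trim and cross-link collagen, 17 rose and 2 fell (median 0.76). P4ha3, a subunit of prolyl 4-hydroxylase, had 126, 120 and 77.7 scaled CPM in m2cafpos, against 18.8, 17.1 and 15 in m2cafneg (log2 fold change 2.57, adjusted p = 5.43e-05). Loxl3, a lysyl oxidase, had 669, 474 and 603 scaled CPM in m2cafpos, against 229, 128 and 174 in m2cafneg. P3h3, a prolyl 3-hydroxylase, rose by 1.04. Pcolce2, an enhancer of procollagen cleavage, went the other way, with 14.7, 21.4 and 8.56 scaled CPM in m2cafpos, against 42.9, 141 and 25.7 in m2cafneg. Of 34 genes of the secretory pathway that such proteins pass through, 17 rose and 1 fell (median 0.38). Pdia5, a disulfide isomerase, Kdelr3, a retrieval receptor, and Sec13, a coat subunit, rose by 1.02, 0.91 and 0.79. Xbp1, a transcription factor of the unfolded protein response, was the gene that fell, by 0.90, and its ceiling was 77.1%.

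Matricellular and other matrix glycoproteins rose for 15 of 24 genes and fell for 4 (median 1.04). Besides Tnc, Cthrc1 had 545, 583 and 475 scaled CPM in m2cafpos, against 130, 140 and 76.6 in m2cafneg, and Ccn4, also known as Wisp1 and a target of Wnt signals, had 392, 332 and 413, against 151, 74.8 and 123 in m2cafneg. Postn, the gene of periostin, and Fn1, the gene of fibronectin, both chosen after their values were seen, rose by 1.09 and 1.0. Fn1 was lost without mouse 27 (adjusted p = 0.0688) or mouse 31 (0.0535). Tgfbi fell by 1.21, with 51.3, 60.2 and 34.1 scaled CPM in m2cafpos, against 132, 165 and 61.6 in m2cafneg.

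Elastic fibre and microfibril genes rose for 12 of 18 and fell for 2 (median 0.90). Fbn1, Fbn2 and Fbln5, which encode fibrillins and fibulin 5, had means of 1654 ± 146, 86.3 ± 6.85 and 379 ± 50.1 scaled CPM in m2cafpos, and of 669 ± 78.3, 27.6 ± 10.0 and 179 ± 53.6 in m2cafneg. Eln, the elastin gene, was chosen after its values were seen and rose by 1.82. Efemp1, which encodes fibulin 3, had 75.9, 117 and 44.3 scaled CPM in m2cafpos, against 318, 904 and 142 in m2cafneg (log2 fold change -2.22, SE 0.21, adjusted p = 0.000475). Among small leucine-rich proteoglycans 6 of 14 rose and 1 fell. Fmod, the gene of fibromodulin, had 308, 616 and 281 scaled CPM in m2cafpos, against 97.3, 63.9 and 86.0 in m2cafneg, and Podnl1 and Aspn rose by 2.07 and 1.39. The decorin gene Dcn fell by 0.98 (2273, 2756 and 2374 in m2cafpos, against 4354, 8959 and 2956 in m2cafneg, adjusted p = 0.0295), a call that was lost without mouse 27 or 30 (0.114 and 0.0908) and with DESeq2 (0.377). Lum, the gene of lumican, chosen after its values were seen, had means of 2556 ± 304 in m2cafpos and 2448 ± 264 in m2cafneg and did not pass the test.

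**Figure D4:**
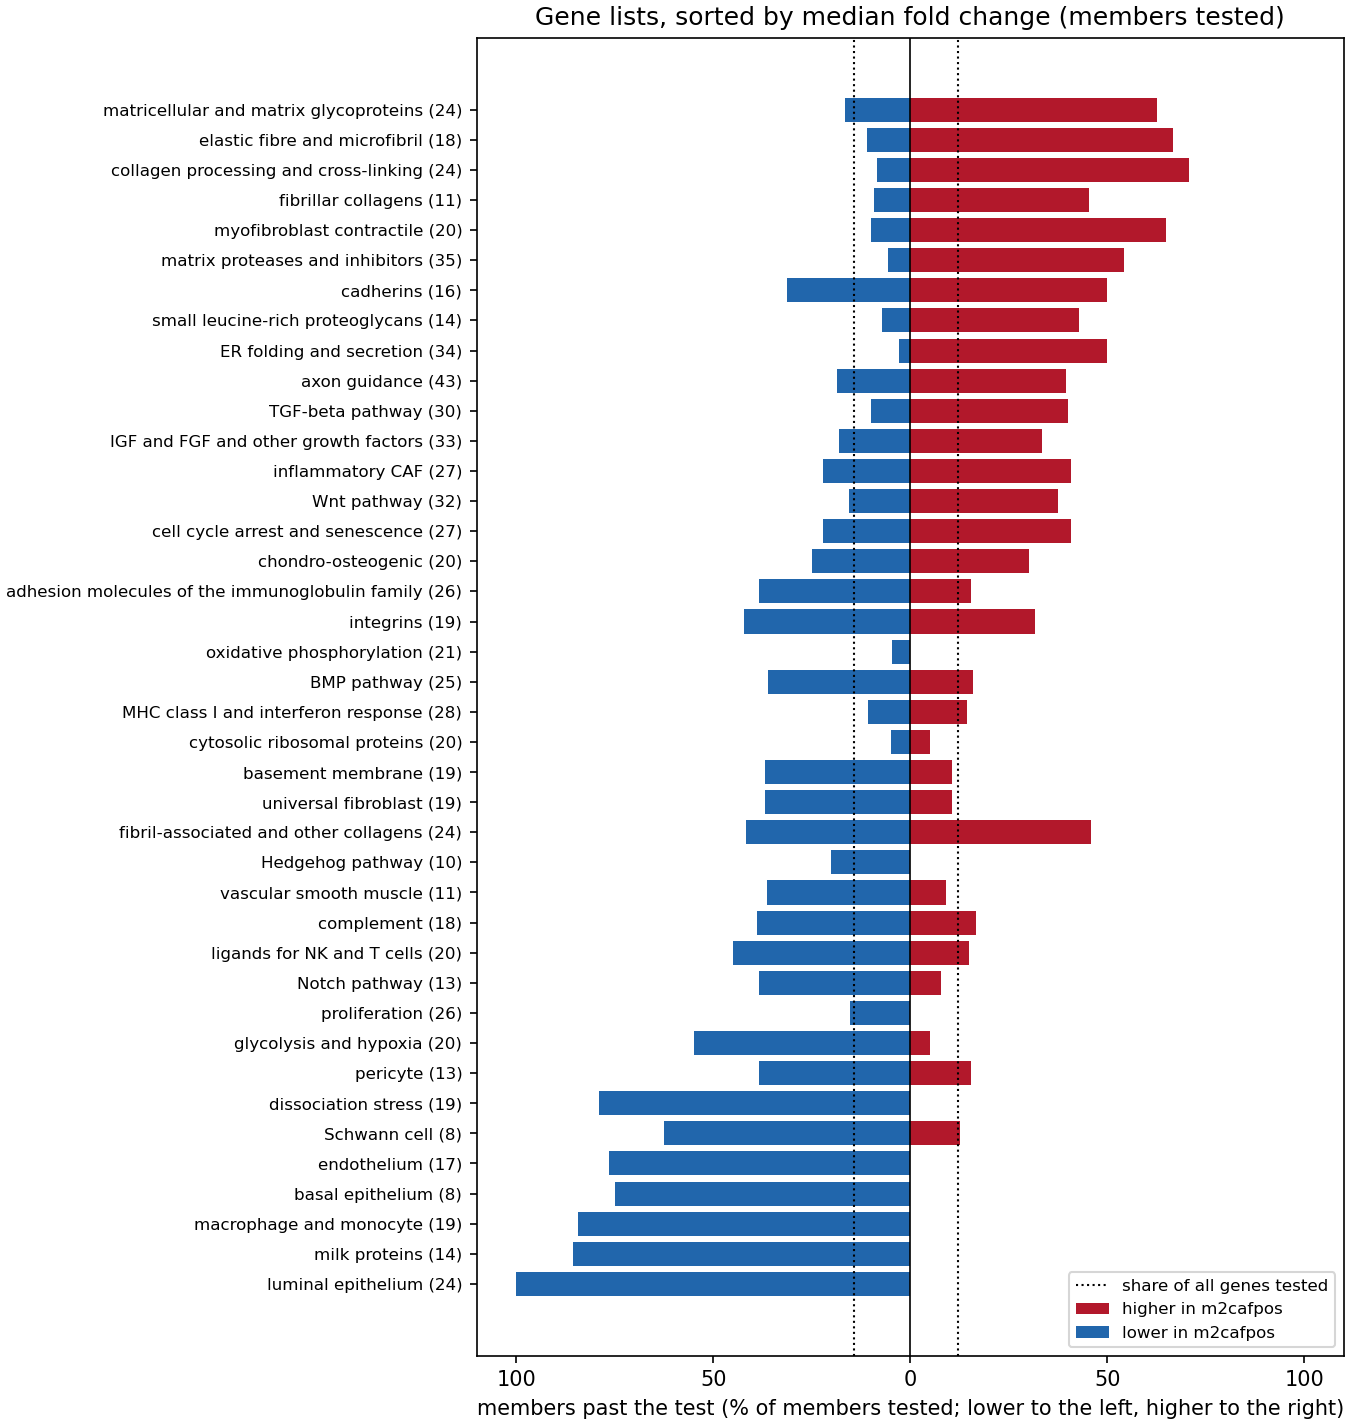
Share of the tested members of each gene list with 8 or more tested that were higher (red, to the right) or lower (blue, to the left) in m2cafpos, sorted by median log2 fold change, with the number tested in brackets and dotted lines at the shares over all genes (12.1% and 14.2%). Matrix, collagen processing and contractile lists lie at the top, and luminal, milk and macrophage markers, with no higher member, at the bottom.

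Matrix proteases and their inhibitors rose for 19 of 35 genes and fell for 2 (median 0.57). Next to Mmp9 and Adamts16, Adamts6 rose by 2.29 and Mmp23 by 1.37. Plaur, the urokinase receptor, had 95.4, 104 and 80.2 scaled CPM in m2cafpos, against 53.8, 42.4 and 41.1 in m2cafneg. Of genes chosen after their values were seen, the collagenase gene Mmp13 had 189, 198 and 308 scaled CPM in m2cafpos, against 96.5, 29.1 and 61.8 in m2cafneg, and Timp1, a metalloprotease inhibitor, rose by 1.71. Mmp15, a membrane-bound metalloprotease, fell by 1.01 with a ceiling of 82.3%.

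Contractile genes of myofibroblasts rose for 13 of 20 and fell for 2 (median 0.64). Acta2, the gene of alpha smooth muscle actin (chr19:34241090-34255590), had 325, 181 and 209 scaled CPM in m2cafpos, against 64.7, 25.1 and 82.2 in m2cafneg (log2 fold change 2.15, SE 0.23, adjusted p = 0.000775). The gates did not overlap, and vcaf, the gate with the pericyte markers, had a mean of 1544 against 42.6 ± 19.8 in icaf. Acta2 is also a pericyte gene. The pericyte index was lower in m2cafpos than in m2cafneg, while 2 of 13 pericyte markers rose and 5 fell, and the part of pericyte RNA in the rise of Acta2 was not tested. The actin-binding genes Tpm2, Cnn2 and Fhl2 rose by 1.23, 1.22 and 1.03. Lmod1, a smooth muscle gene, fell to 0.901 ± 0.294 scaled CPM in m2cafpos, against 3.29 ± 1.07 in m2cafneg.

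In the TGF-beta pathway 12 of 30 genes rose and 3 fell (median 0.31). Lrrc15, a membrane protein that TGF-beta induces in fibroblasts, had 1967, 1336 and 2144 scaled CPM in m2cafpos, against 849, 335 and 683 in m2cafneg (log2 fold change 1.62, adjusted p = 0.000572). Its mean in icaf was 122 ± 47.2, below both. Pmepa1, a target and negative regulator of the pathway, rose by 1.25, and Lrrc32, which anchors latent TGF-beta at the surface, by 0.75. Tgif1, a transcriptional repressor, fell by 0.89 with a ceiling of 98.9%.

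Of 25 BMP pathway genes tested, 4 rose and 9 fell (median -0.03). Bmp4, a ligand (chr14:46383520-46390669), had 2.21, 3.69 and 1.36 scaled CPM in m2cafpos, against 29.0, 33.5 and 19.0 in m2cafneg (log2 fold change -3.06, SE 0.15, adjusted p = 6.77e-05). Gdf10, also called BMP3B, had 7.87, 15.6 and 4.04 scaled CPM in m2cafpos, against 29.6, 84.6 and 27.2 in m2cafneg. Their ceilings were 2.18% and 1.96%, and their means in icaf were 24.6 ± 5.59 and 83.6 ± 18.8. Id2, a target of BMP signals, fell by 0.96 with a ceiling of 77.6%.

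Of 32 Wnt pathway genes, 12 rose and 5 fell (median 0.16). Lgr5, a receptor for R-spondins, had 40.9, 17.3 and 33.5 scaled CPM in m2cafpos, against 6.98, 1.82 and 9.26 in m2cafneg, while its relative Lgr6 fell by 1.67 with a ceiling of 78.8%. The ligand gene Wnt9a and the secreted modulator gene Dkk3 rose by 1.21 each. Of genes chosen after their values were seen, Sfrp4, a secreted antagonist, fell to 104, 223 and 64.7 scaled CPM in m2cafpos, against 502, 548 and 179 in m2cafneg. Among genes of cartilage and bone, 6 of 20 rose and 5 fell. Cilp, a cartilage matrix gene that fibroblasts of other tissues also make, had 7946, 10140 and 8818 scaled CPM in m2cafpos, against 4291, 1554 and 3815 in m2cafneg, and the transcription factor gene Runx1 rose by 1.25. Mgp, an inhibitor of calcification, rose by 0.89 and was lost without mouse 30 (adjusted p = 0.0682). Alpl, the gene of tissue-nonspecific alkaline phosphatase, fell by 1.70.

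Growth factors and their binding proteins rose for 11 of 33 genes and fell for 6. Nrg1 led them, and Igfbp2, which binds insulin-like growth factors, had 121, 93.4 and 51.6 scaled CPM in m2cafpos, against 18.6, 11.3 and 9.92 in m2cafneg. Pdgfd, a ligand of PDGFRb, rose by 1.29. Met, the receptor of hepatocyte growth factor, fell by 1.57 with a ceiling of 60.2%. Of 13 Notch genes, the ligand gene Jag1 rose by 0.58 and 5 fell, among them Hey1, Dll4 and Mfng with ceilings of 59.9% to 62.1%. The endothelial index was lower in m2cafpos as well, and its part in the fall of Dll4, an endothelial gene, was not tested. In the Hedgehog pathway none of 10 rose and 2 fell.

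Surface proteins changed in both directions. Of 26 other adhesion molecules of the immunoglobulin family, 4 rose and 10 fell. Nfasc, the gene of neurofascin, rose by 1.17, with 25.6, 19.8 and 27.3 scaled CPM in m2cafpos, against 12, 6.93 and 12.3 in m2cafneg. Lsamp fell to 0.553, 0.733 and 0.422 scaled CPM in m2cafpos, against 8.66, 8.12 and 3.88 in m2cafneg, with a ceiling of 0%, whereas Esam and F11r, adhesion molecules of endothelium and epithelium, fell by 1.76 and 1.04 with ceilings of 46.3% and 96.2%. Of 16 cadherins, 8 rose and 5 fell. Cdh11, the cadherin of mesenchymal cells, had 247, 212 and 236 scaled CPM in m2cafpos, against 140, 116 and 111 in m2cafneg, and Dchs1 and Fat1 rose by 1.03 and 0.99. Celsr2 fell by 1.77 with a ceiling of 92.2%, and Cdh19, a Schwann cell cadherin, by 1.66. Of 19 integrins, 6 rose and 8 fell. Itgb5 had 383, 382 and 383 scaled CPM in m2cafpos, against 186, 175 and 194 in m2cafneg, while the laminin receptor gene Itga6 and the collagen receptor gene Itga2 fell by 2.11 and 1.69.

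Of 43 axon guidance genes, 17 rose and 8 fell (median 0.36). Unc5c, a netrin receptor, rose by 1.59, with 29.6, 13.7 and 28.6 scaled CPM in m2cafpos, against 8.70, 4.07 and 8.87 in m2cafneg. Bdnf, a neurotrophin, and Slit2, a repulsive guidance ligand, rose by 1.55 and 1.27, and Efna1 fell by 1.33 with a ceiling of 95.6%. Their means in icaf were 1.04, 5.96 and 33.3 scaled CPM for Unc5c, Bdnf and Slit2. Of 19 basement membrane genes 7 fell (36.8%, against 14.2% of all genes) and 10 did not pass the test. The 2 that rose (10.5%) were near the share of all genes (12.1%). Lama1 rose by 1.08, and Col4a6, Lamb3 and Col4a4 fell by 1.73, 1.37 and 1.25, with ceilings of 74.4%, 60.6% and 26.1%.

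Genes of inflammatory fibroblasts were mixed, with 11 of 27 higher and 6 lower. The chemokine genes Ccl7, Ccl2 and Ccl8, whose products attract monocytes, rose by 2.09, 1.78 and 0.89. Ccl2 had 373, 457 and 204 scaled CPM in m2cafpos, against 172, 102 and 47.9 in m2cafneg. Cxcl12, the ligand of CXCR4, fell, with 163, 196 and 122 scaled CPM in m2cafpos, against 367, 789 and 246 in m2cafneg (log2 fold change -1.39, SE 0.18, adjusted p = 0.00138). Il6 had 18.8, 28.4 and 17.3 scaled CPM in m2cafpos, against 21.5, 23.2 and 15.9 in m2cafneg, so the gates overlapped and it did not pass the test (adjusted p = 0.744). Il33, an alarmin, was chosen after its values were seen and had 856, 896 and 850 scaled CPM in m2cafpos, against 424, 162 and 382 in m2cafneg. Il1rl1, the gene of its receptor ST2, likewise chosen, rose by 1.56 to 4.56 ± 2.20 in m2cafpos, against 0.919 ± 0.813 in m2cafneg, and Ptgs2, the gene of cyclooxygenase 2, rose by 1.64.

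Complement genes fell more often than they rose, with 3 of 18 higher and 7 lower, and C1qtnf3, which is related to C1q in its fold but is no complement component, is one of the 3. C7, a part of the membrane attack complex, had 4.13, 4.85 and 1.19 scaled CPM in m2cafpos, against 30.2, 24.7 and 24.8 in m2cafneg, and C3 fell by 0.71. Cfp, the gene of properdin, fell by 1.88 with a ceiling of 52.7%. Of 20 genes for ligands that natural killer and T cells read, 3 rose and 9 fell. Tnfsf18, the ligand of GITR, had 6.62, 6.37 and 4.96 scaled CPM in m2cafpos, against 1.53, 0.573 and 1.0 in m2cafneg. Icosl, the ligand of ICOS, had 3.70, 8.08 and 4.12 scaled CPM in m2cafpos, against 25.8, 31.5 and 15.3 in m2cafneg, with a ceiling of 23.1% and a mean of 43.2 ± 12.2 in icaf. Vtcn1 and Lgals3 fell by 1.5 and 0.95. MHC class I and interferon genes showed shares near those of all genes, with 4 of 28 higher and 3 lower. The 3 higher ones named, Isg15, Tapbp and Bst2, rose by 0.47, 0.42 and 0.36, Irf1 fell by 0.59, and each of the 3 rises was lost without mouse 30 and also without mouse 31.

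Of 27 genes of cell cycle arrest and senescence, 11 rose and 6 fell (median 0.13). Cdkn2a, which encodes p16 and p19Arf, was near the detection filter, with 2.27, 2.14 and 2.08 scaled CPM in m2cafpos, against 1.31, 0.467 and 1.23 in m2cafneg (adjusted p = 0.0386), and the call was lost without any of the 3 mice (0.0641 to 0.160) and with edgeR (0.0632). Its means in icaf and vcaf were 0.197 and 0.183. Cdkn2b, its neighbour that encodes p15, had 94.9, 85.7 and 90.7 scaled CPM in m2cafpos, against 67.1, 44.0 and 53.1 in m2cafneg, and 7.14 ± 4.48 in icaf, and was not past the test in the fit of all 12 libraries (adjusted p = 0.0558). Cdkn1a, which encodes p21, rose by 0.71. Igfbp3 and Ccnd2 rose by 1.89 and 1.26, and Bcl2l1, an inhibitor of cell death, fell by 0.93 with a ceiling of 90.1%.

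Of the lower genes of the stromal class, Myoc, the gene of myocilin (chr1:162639155-162649693), had 1.23, 1.98 and 0.198 scaled CPM in m2cafpos, against 47.0, 48.0 and 13.4 in m2cafneg (log2 fold change -4.02, SE 0.20, adjusted p = 6.43e-05). Inmt, an indolethylamine methyltransferase (chr6:55170626-55175043), had 1.90, 4.09 and 0.248 scaled CPM in m2cafpos, against 20.1, 115 and 28.0 in m2cafneg. Enpp2, the gene of autotaxin, which makes lysophosphatidic acid (chr15:54838901-54952892), had 23.2, 14.8 and 11.5 scaled CPM in m2cafpos, against 184, 553 and 72.0 in m2cafneg (log2 fold change -3.54, SE 0.42, adjusted p = 0.000994). The gates did not overlap for these 3 genes, which was a condition of their choice. In m2cafneg, mouse 30 was the highest of the 3 mice for Inmt and Enpp2.

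Scara5, a ferritin receptor, had 17.6, 34.3 and 23.4 scaled CPM in m2cafpos, against 93.8, 310 and 86.9 in m2cafneg. Vit and Scg3, which encode vitrin and secretogranin 3, fell by 2.99 and 3.01, and Slco2b1, an organic anion transporter, by 2.78. Vtn, the vitronectin gene, which pericytes also make, had 1.21, 3.38 and 1.98 scaled CPM in m2cafpos, against 30.7, 34.5 and 14.2 in m2cafneg, with means of 67.3 in icaf and 293 in vcaf. Angptl7 and Nos1 fell by 3.06 and 2.67 and were highest in m2cafneg of mouse 30, with 56.3 and 64.7 scaled CPM, against 11.4 to 12.2 and 14.1 to 20.1 in m2cafneg of the other mice. Acta1, the skeletal muscle actin gene, had 0.790, 0.855 and 0.868 scaled CPM in m2cafpos, against 6.47, 1.87 and 96.6 in m2cafneg. The m2cafneg library of mouse 31 also had the highest sum of skeletal muscle markers, 124 scaled CPM against 6.27 to 12.3 in the other 5 libraries, and the call of Acta1 was lost without mouse 27 (adjusted p = 0.0785). Tspan8, a tetraspanin of epithelia, is in the stromal class by its ceiling of 14.3%, yet it was lowest in the gates with the least epithelial RNA (3.05 ± 2.22 in m2cafpos and 3.56 ± 4.34 in icaf) and its mean was 15.2 in vcaf.

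The icaf gate had epithelial and macrophage indices of 0.280 ± 0.149 and 0.332 ± 0.106 (SD, n = 3), close to those of m2cafpos, and its level was set beside that of m2cafneg for each lower gene. The mean in icaf was at least that in m2cafneg for 67 of the 233 lower stromal genes (28.8%), against 39.8% of the whole stromal class. It was so for 51 of the 284 lower genes between the limits (18.0%), against 43.8% of all genes there. For the carry-over class it was so for 205 of the 1497 lower genes (13.7%), against 52.6% of the class. Over all genes tested the share was 50.6%. The icaf libraries are among those from which the ceiling is taken, so the classes are not independent of the level in icaf. Among the 15 largest lower stromal genes 7 had an icaf mean at least that of m2cafneg, namely Myoc, Vtn, Scg3, Vit, Slco2b1, C7 and Scara5. For 6 of the 15 the icaf mean was at most 0.25 of the m2cafneg mean, and the lowest ratio was 0.0127. Of other named genes, Efemp1, Pcolce2, Gdf10, Icosl, Cxcl12, Lsamp and Itga2 had an icaf mean at least that of m2cafneg. So did Clec3b, Cd34 and C3, with means in icaf of 938 ± 150, 2027 ± 355 and 2916 ± 475 scaled CPM. Most of the 233 lower stromal genes did not. Clec3b and Cd34 belong to the genes of universal fibroblasts, of which 2 of 19 rose and 7 fell. Clec3b had 42.0, 115 and 48.3 scaled CPM in m2cafpos, against 158, 378 and 84.3 in m2cafneg, and Cd34 had 186, 311 and 192, against 401, 607 and 300.5 in m2cafneg. In this list Tubb3 rose by 1.14, and Efhd1, with a mean of 124 in icaf, fell by 1.72. Ly6c1, on which icaf was sorted, had 37.9, 69.1 and 36.8 scaled CPM in m2cafpos, against 50.6, 76.6 and 55.1 in m2cafneg, and its call (adjusted p = 0.0394) was lost without mouse 27 or 31. Reads of Ly6c1 and its near copy Ly6c2 may be split between them. Of genes chosen after their values were seen, Gsn, the gene of gelsolin, had 2685, 3293 and 2129 scaled CPM in m2cafpos, against 10800, 15630 and 5290 in m2cafneg, with a mean of 25610 in icaf, and Apod, the gene of apolipoprotein D, had 388, 603 and 415, against 1430, 2271 and 1008 in m2cafneg. The call of Gsn was lost with DESeq2 (adjusted p = 0.147).

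**Figure D5:**
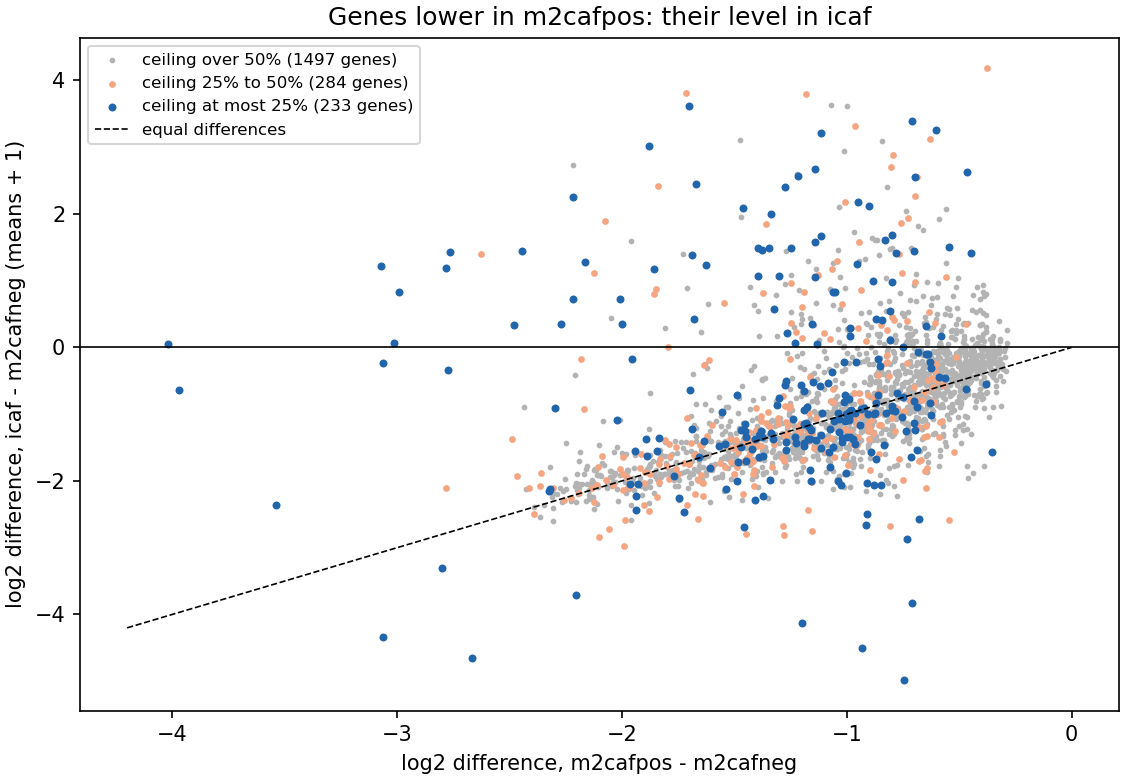
For the 2014 genes lower in m2cafpos, the log2 difference of the icaf mean from the m2cafneg mean (y axis, means over 12-library scaling plus 1) against the log2 difference of m2cafpos from m2cafneg (x axis), coloured by carry-over ceiling. Many genes of all 3 classes, the stromal class included, lie near the broken line, where icaf is as far below m2cafneg as m2cafpos is, and 67 of the 233 stromal genes lie on or above the line at 0.

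Genes that fell and that carried-over RNA could supply were led by Apoe, the apolipoprotein E gene that macrophages and fibroblasts make, with 219, 369 and 243 scaled CPM in m2cafpos, against 996, 2442 and 1294 in m2cafneg. Its mean in icaf was 910 ± 407. Muc15, Sfn, Galnt3 and Cldn4, genes of epithelia, fell by 2.43, 2.36, 2.35 and 2.31, and Cpe, a carboxypeptidase gene, by 2.39. Of the luminal markers 24 of 24 fell, between -2.31 and -1.52 on the log2 scale (median -1.98), of the milk genes 12 of 14 (median -1.81), of the basal markers 6 of 8 and of the macrophage markers 16 of 19 (median -1.62). Sfn had 34.4, 16.8 and 56.8 scaled CPM in m2cafpos, against 147, 165 and 201 in m2cafneg, and in both gates mouse 31 was the highest, as it was for the epithelial index. Endothelial markers fell for 13 of 17, and Pecam1, which encodes the CD31 of the sort, had 2.87, 9.39 and 13.2 scaled CPM in m2cafpos, against 14.5, 28.0 and 64.6 in m2cafneg. Ptprc, which encodes CD45, was low in both, at 1.03 ± 0.448 in m2cafpos and 3.31 ± 0.512 in m2cafneg, and its call was lost without mouse 27 (adjusted p = 0.0562). Pericyte markers were mixed, with 2 of 13 higher and 5 lower, and Mcam, the CD146 of the sort, had means of 4.54 ± 1.98 in m2cafpos and 8.73 ± 7.29 in m2cafneg and did not pass. The 2 that rose were Rgs4, a regulator of G-protein signals, by 2.08 and Cspg4, the gene of the proteoglycan NG2, by 1.49, both named after their values were seen. Steap4 fell by 2.05, and Rgs5 by 1.17 with the call lost without mouse 27 (adjusted p = 0.0672). Of the Schwann cell markers 5 of 8 fell and of the adipocyte markers 4 of 6, whereas few lymphocyte (4 of 14) and neutrophil (3 of 11) markers passed the filter on low values at all. Sox10, a Schwann cell gene that mammary epithelium also makes, fell by 2.14 with a ceiling of 81.2%.

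Of 19 genes that tissue dissociation induces, 15 fell and none rose (median -0.66). Of the 15, 14 have ceilings over 50%, as do 1497 of the 2014 lower genes and 11554 of all 14175 genes tested. Atf3 had 215, 201 and 257 scaled CPM in m2cafpos, against 486, 603 and 531 in m2cafneg, and Nr4a1 and Fosb fell by 0.97 and 0.66. Atf3 averaged 543 ± 11.6 in icaf and 576 in m2cafneg on the same scaling, and Nr4a1 averaged 311 ± 77.4 in icaf and 639 in m2cafneg. Of 20 glycolysis and hypoxia genes 11 fell and 1 rose. Adm, the adrenomedullin gene, fell with a ceiling of 7.06% (50.7, 103 and 57.1 scaled CPM in m2cafpos, against 151, 349 and 93.3 in m2cafneg), Egln3 and Ndrg1 fell by 1.31 and 1.15, and Hk2 rose by 0.56, lost without mouse 27 or 31. Of 26 proliferation genes none rose and 4 fell, of which Mcm6, Rrm2 and Aurkb fell by 0.79, 0.65 and 0.53. The call of Rrm2 was lost without mouse 31, and that of Aurkb without mouse 27 or 31. Ribosomal protein genes (1 of 20 higher and 1 lower) and genes of oxidative phosphorylation (0 of 21 higher and 1 lower) lay below the shares of all genes, and mitochondrial transcripts took 0.278% to 0.314% of reads in m2cafpos and 0.331% to 0.450% in m2cafneg.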

How the data were processed

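Tumours were digested and sorted, their RNA was extracted on spin columns and sequenced on an Illumina NovaSeq, per the labels' protocols. Per the submitters' processing notes, bcl2fastq and DRAGEN were used with mm10. Library kit, annotation and strand handling: not given in the sources used here, so overlapping and antisense genes are less certain. The authors deposited 1 table of CPM, that is reads per 1000000 assigned to genes, with 55487 genes after removing 287 repeated lines. Every value was a whole multiple of 1 read (100% within 0.001 reads), which gave back the read counts. Floors cover counting error only. Positions come from GENCODE M21 (GRCm38).

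Scaled CPM was tested with limma 3.58.1 in R 4.3.3 (two-sided, trend, 2 residual and 5.72 prior degrees of freedom, pseudocount 1, Benjamini-Hochberg adjustment), which understates fold changes of low genes. Mouse is a block because the sample titles give both gates the same mouse numbers, per the labels. Deviations from the gate means correlated positively for same-numbered libraries (r = 0.341, 0.456 and 0.473) and negatively for other pairs (-0.383 to -0.00499). Each gate mean is over its own 3 libraries, so the negative values are no independent support for the pairing. Recovered counts were tested with edgeR 4.0.16 and DESeq2 1.42.0 as alternatives; edgeR called 1613 genes higher and 1842 lower. The fits and the ceiling were tested on simulated data.

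Named genes (178) were the sort genes and 6 fixed genes, the 15 largest higher, the 15 largest lower stromal and the 8 largest lower carry-over genes whose libraries did not overlap, with a mean of at least 10 scaled CPM in the higher gate, and from each list with 3 or more members past the test up to 3 with the smallest adjusted p, plus 1 in the other direction for programme lists; gene models known only by a number or clone name were left out. A further 33 were chosen after their values were seen. The comparison, the 47 gene lists and the rules were chosen with earlier results of these data known. Not every named gene is described here.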

Additional observations from a re-analysis of the deposited data

How the results depend on the processing

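Directions held for every named gene past the test with CPM as deposited, TMM, DESeq2, edgeR, a pseudocount of 0.25 and without any mouse. edgeR shared 1603 of the higher and 1837 of the lower calls. Counts of genes higher, lower, lower stromal and lower of the carry-over class (1713, 2014, 233 and 1497) became 842, 4414, 326 and 3671 with CPM as deposited; 685, 935, 137 and 674 with no filter (32695 genes tested); and 941, 1084, 120 and 819 with no replicate block. All 12 libraries with no replicate block, added after seeing the data, gave 1298, 1283, 139 and 974. Without 1 mouse they were 1056 to 1502, 1434 to 1779, 167 to 237 and 1044 to 1311. Ceiling limits of 15% and 40% left 147 lower stromal genes, limits of 40% and 60% left 375, and asking that the icaf mean be at least that of m2cafneg, also added later, left 67. Subtracting the largest possible epithelial carry-over removed all calls (0 higher, 0 lower, 0 and 0), with 7084 genes at an unadjusted p under 0.05 in limma. The subtraction moved the median gene by 0.91, since it takes by construction the most that each gene allows. Macrophage RNA was not subtracted. An epithelial covariate over 12 libraries left 7, 1, 0 and 1, with 1552 genes at an unadjusted p under 0.05. That covariate was the log2 epithelial index, which was lower in m2cafpos than in m2cafneg in all 3 pairs. Since index and gate go together, this fit cannot separate them well.

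Some log2 fold changes turned sign. With CPM as deposited Pdgfra was at -0.094, Il6 at -0.18, Lum at -0.20 and Dlk1 at -0.0204. Without 1 mouse Il6 ran from -0.0377 to 0.192, Lum from -0.10 to 0.189, and Dlk1 was at -0.20 without mouse 30. After subtraction the values were 0.47 for Mcam, 0.10 for Mmp15, 0.53 for Tgif1, 1.79 for F11r, 0.89 for Efna1, 0.61 for Irf1, 2.29 for Bcl2l1, 1.87 for Mcm6, 1.47 for Aurkb, 1.53 for Rrm2, 0.49 for Ndrg1, 1.73 for Atf3, 2.44 for Nr4a1, 0.26 for Fosb and 0.37 for Rgs5. With the covariate they were 0.38 for Epcam, -0.88 for Il6, 0.66 for Col9a2, 0.24 for Muc15, 0.23 for Lalba, 1.08 for Cldn4, -0.20 for Col11a1, 0.58 for Celsr2, 0.31 for Itga6, -0.85 for Tubb3, 0.59 for Irf1, -0.71 for Hk2, 0.75 for Btn1a1, 0.39 for Plet1, 0.53 for Sox10, -0.0693 for Lum, -0.0437 for Dlk1, -0.0731 for Il33, 0.15 for Krt5, 0.0509 for Ovol1 and 0.15 for Cdh1. Epcam, Lalba, Cldn4, Btn1a1, Plet1, Ovol1 and Cdh1 are on the marker lists of the epithelial index, so their values with the covariate are partly built in. The cause of the changes in sign was not tested.

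Of the 211 named genes, 39 lost their call with no filter and 39 with no replicate block, 3 with edgeR and 4 with DESeq2. At the depth of these libraries genes under about 1 CPM were not tested, and with 3 mice the spread between animals rests on few values.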

Other observations

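Of 5 genes of the imprinted Dlk1-Dio3 region, chosen after their values were seen, 4 were higher in m2cafpos and Dlk1 did not pass the test; the other genes of the region were not counted. Dio3, the gene of deiodinase 3, averaged 19.7 ± 1.62 scaled CPM in m2cafpos and 3.36 ± 2.15 in m2cafneg (SD, n = 3 each, log2 fold change 2.39, adjusted p = 0.000774), with a ceiling of 0%. The noncoding RNA Meg3 had 218, 482 and 274 scaled CPM in m2cafpos, against 69.8, 110 and 126 in m2cafneg, and its neighbours Rian and Mirg rose by 1.48 and 1.32. Dlk1 had 0.573, 3.14 and 0.992 scaled CPM in m2cafpos, against 0.735, 1.44 and 1.38 in m2cafneg and did not pass the test. Meg3, Rian and Mirg have ceilings of 81.3%, 84.7% and 81.5%, and in vcaf they averaged 225, 62.6 and 8.5 scaled CPM. The imprinted genes Plagl1 and Mest rose by 1.56 and 1.13, as H19 did.

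Of transcription factor genes chosen in the same way, Prrx2, a homeobox gene of mesenchyme, had 12.5, 10.6 and 7.91 scaled CPM in m2cafpos, against 5.23, 4.16 and 3.98 in m2cafneg (log2 fold change 1.04, adjusted p = 0.00299). Klf15, a gene that glucocorticoids induce, had 0.514, 2.00 and 0.372 scaled CPM in m2cafpos, against 4.96, 15.8 and 4.81 in m2cafneg (log2 fold change -2.18, adjusted p = 0.0004), with a ceiling of 27.3%.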
